A study of Mus musculus with 18 samples.

Results

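The basal difference between Nrf1-KO and WT NIH-3T3 cells, both in DMSO without CFZ, was described here across all expressed genes. It rests on 6 of the 18 libraries of the series, the 3 of Nrf1-KO cells in DMSO and the 3 of WT cells in DMSO, chosen by their genotype and treatment labels. NIH-3T3 is an immortalized line of mouse fibroblasts, and all 6 cultures were grown in DMEM with 10% fetal bovine serum and given the vehicle. The remaining 12 libraries come from the same lines in 200 nM carfilzomib (CFZ, an irreversible proteasome inhibitor) for 6 h or 24 h. The study used them to ask how cells without Nrf1 respond to a blocked proteasome, and the DMSO libraries served as its controls. The WT cells were the purchased line, and the Nrf1-KO cells were a line made earlier with CRISPR/Cas9. Whether that line is 1 clone is not given in the sources used here, and no second knockout line or rescued line was sequenced. A difference due to Nrf1 and any other difference between the lines therefore cannot be told apart in these libraries, and the time in DMSO is not given.

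Nrf1 is a transcription factor of the cap'n'collar basic leucine zipper (CNC-bZIP) family that is made as a protein of the endoplasmic reticulum membrane. In cells with an active proteasome it is extracted by p97 and degraded. When the proteasome is impaired it is likewise extracted by p97. It is then deglycosylated by Ngly1, cut by the protease Ddi2 and moved to the nucleus. There, with a small Maf partner, it binds antioxidant response elements (AREs) and raises transcription of proteasome subunit genes. In the count table it is listed as Nfe2l1, whereas the symbol Nrf1 stands there for nuclear respiratory factor 1, a different gene.

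The 6 libraries held 14231065 to 23917081 counted reads. Correlations of log2 CPM (counts scaled to a common library total) were 0.9962 to 0.9969 within the groups and 0.9738 to 0.9746 between them. All 12 fibroblast markers examined, among them Col1a1, Col1a2, Vim, Pdgfrb and Prrx1, were above 1 CPM in both lines, with a summed level of 34410 to 37310 CPM in WT and 28600 to 34990 CPM in Nrf1-KO libraries. Epithelial, endothelial, blood and macrophage, skeletal muscle and neural marker lists summed to at most 17.54 CPM in any library, and Epcam, Krt8, Kdr, Cldn5, Myf5 and Pax7 had no count. Some members of these lists differed between the lines. Cdh1 stood at 6.118 CPM in WT and 11.63 in Nrf1-KO cells (log2 difference 0.95), and Lyz2 at 11.14 and 14.92 (0.43). Ptprc had 0 counts over the WT libraries and 56 over the Nrf1-KO libraries. Des (0.83) and Map2 (2.3) were also higher, and S100b (-1.09) was lower. The adipocyte list summed to 186.3 to 214.0 CPM, almost all of it lipoprotein lipase (Lpl), at 210.4 ± 3.12 CPM in WT and 190.7 ± 4.55 in Nrf1-KO cells (SD, n = 3). In bulk RNA, fewer cells that express a gene and less of its RNA per cell cannot be told apart.

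Nfe2l1 itself was lower in Nrf1-KO cells but its transcript was not lost. Its level, in CPM scaled by TMM (trimmed mean of M-values), was 456.9, 437.3 and 448.8 CPM in the WT libraries and 174.3, 184.6 and 181.3 CPM in the Nrf1-KO libraries. The groups did not overlap, and the Nrf1-KO level was 40.2% of WT (log2 difference -1.31 ± 0.034 SE, adjusted p = 1.56e-24, edgeR quasi-likelihood test). Counts per gene do not show whether the remaining transcript encodes a full protein. In the GRCm38 annotation Nfe2l1 lies on the minus strand of chromosome 11 from 96817414 to 96829968. Its tested neighbours on that chromosome differed far less, with log2 differences of 0.07 for Snx11 and -0.18 for Cbx1 on one side and -0.09 for Copz2 and -0.17 for Cdk5rap3 on the other.

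Across the transcriptome, 6436 of 11762 genes tested (54.7%) passed an adjusted p of 0.05 between the lines, 3017 higher (25.7%) and 3419 lower (29.1%) in Nrf1-KO cells. Most of these differences were small. The median size was 0.287 on the log2 scale for called genes and 0.175 for all genes tested, with a biological coefficient of variation of 3.13% between replicates. With a minimum difference of 2-fold, 376 genes were higher (3.20%) and 208 lower (1.77%), and with 4-fold 160 were higher and 72 lower. The 3 Nrf1-KO libraries all lay above the 3 WT libraries for 28.0% of tested genes and all below for 31.8%. The split of the 6436 calls depends on scaling. TMM put 46.9% of the calls higher in Nrf1-KO cells, and library size alone put 57.7% of its 6298 calls higher. The median of all tested genes moved between these scalings from -0.02 to 0.03. The counts below are read against these shares of 25.7% and 29.1%.

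**Figure D1:**
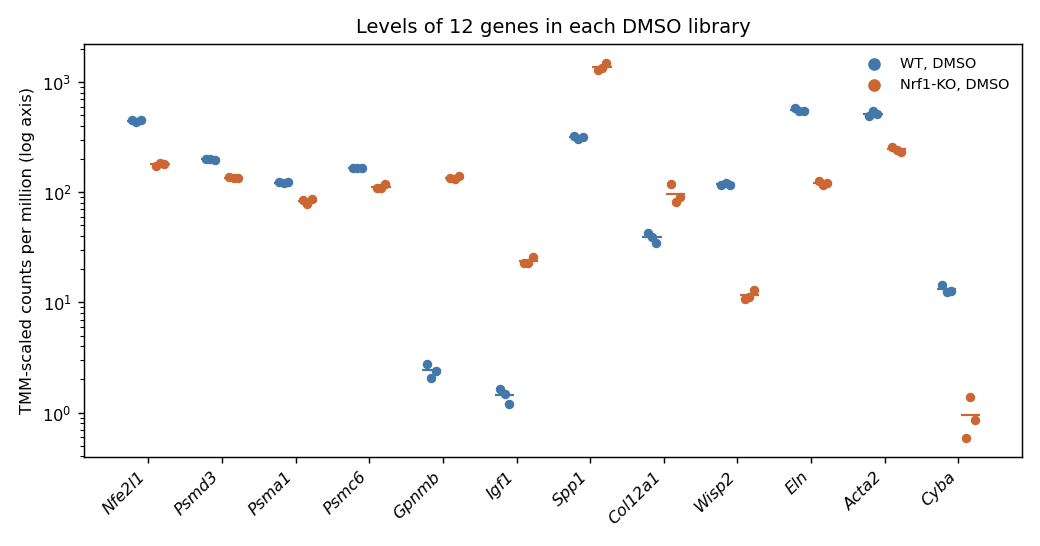
Levels of 12 genes in each DMSO library, in TMM-scaled CPM on a log axis, with points for the 3 WT (blue) and 3 Nrf1-KO (orange) libraries and a bar at each mean. The 2 lines do not overlap for any of these genes, and the proteasome subunits Psmd3, Psma1 and Psmc6 differ far less than Gpnmb, Igf1 or Wisp2. The genes were picked for display, and Gpnmb, Igf1, Wisp2, Eln and Cyba come from groups chosen for large differences without overlap. Of all tested genes, 28.0% lay wholly above WT and 31.8% wholly below.

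The genes that Nrf1 is best known to control, those of the 26S proteasome, were lower in Nrf1-KO cells as a group and by a modest amount. The proteasome is a protease made of a core particle, whose alpha and beta rings enclose the active sites, and a regulatory particle, whose ATPase and non-ATPase subunits bind, unfold and deubiquitinate substrates. All 33 subunits were tested, and 29 of them (87.9%) were lower against 29.1% of all genes, 1 was higher and 3 did not pass the threshold. Their median log2 difference was -0.29, that is 81.6% of WT, against -0.02 for all genes tested. Since these genes were listed with earlier results of the series known, the count is given without a test of the list.

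Psmd3, a non-ATPase subunit of the lid, differed most. It stood at 200.7, 202.1 and 195.5 CPM in WT and at 136.5, 135.8 and 133.6 CPM in Nrf1-KO cells (log2 difference -0.56 ± 0.032 SE, adjusted p = 1.12e-15). Psma1, an alpha ring subunit, stood at 123.2, 121.6 and 122.8 CPM in WT and 85.23, 78.48 and 87.37 CPM in Nrf1-KO cells (-0.55 ± 0.042, adjusted p = 1.28e-12). Neither gene overlapped between the lines. Psmc6, a base ATPase, stood at 165.2, 164.9 and 166.5 CPM in WT and at 108.9, 109.4 and 119.7 CPM in Nrf1-KO cells (-0.55 ± 0.047, adjusted p = 2.23e-11).

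The parts of the particle had different medians, but their ranges overlapped and no test compared them. All 6 ATPases fell (median -0.39), as did all 7 beta subunits (median -0.31), which include the catalytic Psmb5, Psmb6 and Psmb7 at -0.35, -0.36 and -0.31. Of the 7 alpha subunits 6 fell (median -0.26), and Psma2 had a log2 difference of -0.07 with overlapping libraries (adjusted p = 0.182). Of the 13 other regulatory subunits 10 fell (median -0.20). Among them the ubiquitin receptor Adrm1, with 20.1% of its stretches shared with Gm9774, was at -0.40 and Psmd11 at -0.42, while Psmd13 at 0.01 and Shfm1 at 0.07 overlapped between the lines. Psmd2, a scaffold of the regulatory particle, was higher by 0.15 (adjusted p = 0.00012). It lies on chromosome 16, where the median gene was higher by 0.26 as described below, and with scaling centred by chromosome its log2 difference became -0.07. Of the 33 subunits 31 lay below the median of their own chromosome.

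**Figure D2:**
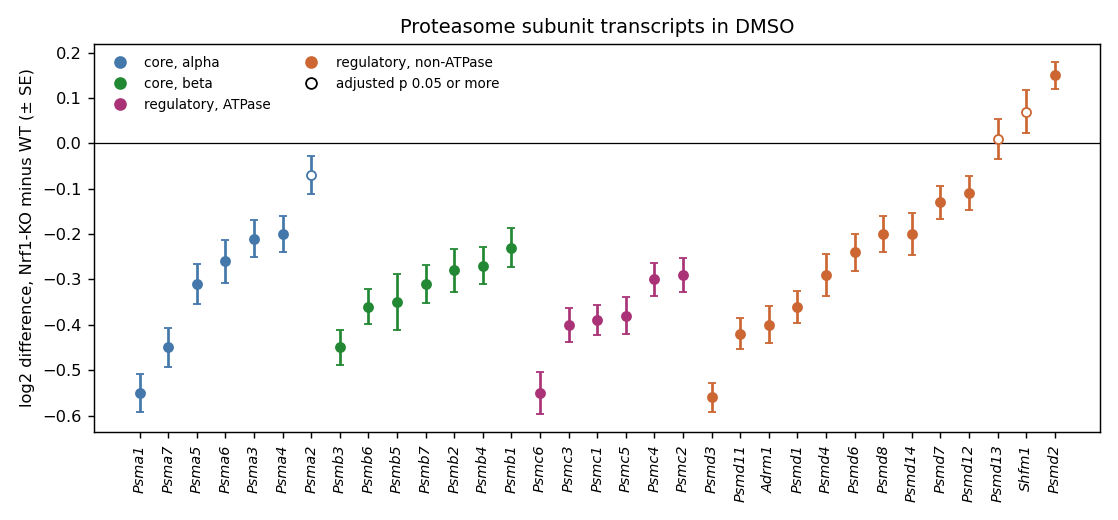
Log2 difference of each of the 33 proteasome subunit transcripts, Nrf1-KO minus WT in DMSO, with bars of 1 SE, ordered within the alpha, beta, ATPase and non-ATPase groups. Filled points passed an adjusted p of 0.05; 29 lie below 0, Psmd2 lies above, and Psma2, Psmd13 and Shfm1 are open.

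Genes that help to build or regulate the proteasome were mixed, and those of ubiquitin and p97 leaned lower. Of 18 tested assembly chaperones, activators, inhibitors and immunoproteasome subunits, 5 were higher and 4 lower (median 0.07). The maturation factor Pomp (log2 difference 0.33) and the assembly chaperones Psmd9 (0.40, with 23.6% of its stretches shared with Gm26745) and Psmg1 (0.33) rose, but all 3 lie on chromosomes 5 and 16, and under scaling centred by chromosome Pomp and Psmg1 lost their calls (adjusted p = 0.0891 and 0.215). The activator Psme4 (-0.39), the inhibitor Psmf1 (-0.43) and AI314180, the mouse symbol of the scaffold Ecm29 (-0.35), fell. Among 24 ubiquitin genes, shuttle factors and p97 cofactors 12 were lower and 2 higher (8.33%). Vcp, which encodes p97, stood at 565.5, 564.9 and 568.3 CPM in WT and 441.4, 413.9 and 397.6 CPM in Nrf1-KO cells, a log2 difference of -0.44 ± 0.038 (adjusted p = 2.44e-11). Its cofactors Faf1 (-0.41) and Nploc4 (-0.37) were lower as well. Of read-length stretches of the Vcp transcripts 32.8% also occur in another gene, Vcp-rs among them, so its counts are less certain.

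Promoter sequences of RefSeq (GRCm38.p6, 250 bases before to 50 after the start) were searched for the ARE core TGACNNNGC on either strand, taking the first window listed for a gene. It occurred in 5 of the 26 proteasome subunits with a window (Psmc6, Psmb5, Psmb6, Psmd12 and Adrm1; 19.2%) and in 15% of the windows of the 8781 tested genes that have one. Of genes at least 2-fold lower 11.4% held it, and of genes at least 2-fold higher 13.3%. A match is a description of these letters and not a bound site. The stretches from 250 to 51 bases upstream are shown for the subunits with the largest differences that have a window, in lower case with a core match in capitals, 5′ to 3′ in the direction of the gene. They are Psmc6 (chr14:45329574-45329773, plus strand), whose match begins 227 bases upstream on the opposite strand, Psma1 (chr7:114276167-114276366, minus strand) and Psma7 (chr2:180042515-180042714, minus strand), which hold no match.
Psmc6: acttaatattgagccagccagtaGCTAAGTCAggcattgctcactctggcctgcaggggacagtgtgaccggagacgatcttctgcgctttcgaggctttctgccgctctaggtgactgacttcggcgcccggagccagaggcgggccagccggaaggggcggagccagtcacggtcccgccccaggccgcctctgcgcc
Psma1: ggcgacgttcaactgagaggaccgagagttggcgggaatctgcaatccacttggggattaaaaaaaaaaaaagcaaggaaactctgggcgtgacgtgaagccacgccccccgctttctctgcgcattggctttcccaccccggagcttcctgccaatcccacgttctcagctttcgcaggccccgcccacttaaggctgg
Psma7: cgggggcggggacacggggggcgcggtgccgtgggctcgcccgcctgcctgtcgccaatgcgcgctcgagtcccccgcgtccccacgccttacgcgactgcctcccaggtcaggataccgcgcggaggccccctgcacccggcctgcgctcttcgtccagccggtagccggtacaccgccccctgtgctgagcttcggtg
For comparison the same stretch is given for 3 of the genes that fell most among those with a mean count of at least 100, taking the first 3 with a window. They are Serpina3n (chr12:104406458-104406657, plus strand), Cyba (chr8:122432991-122433190, minus strand) and Fhl1 (chrX:56779433-56779632, plus strand), and none of them holds the core in its window.
Serpina3n: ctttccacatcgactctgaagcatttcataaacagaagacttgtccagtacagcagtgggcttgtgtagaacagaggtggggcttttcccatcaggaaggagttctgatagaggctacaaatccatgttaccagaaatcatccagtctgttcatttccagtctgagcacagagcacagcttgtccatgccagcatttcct
Cyba: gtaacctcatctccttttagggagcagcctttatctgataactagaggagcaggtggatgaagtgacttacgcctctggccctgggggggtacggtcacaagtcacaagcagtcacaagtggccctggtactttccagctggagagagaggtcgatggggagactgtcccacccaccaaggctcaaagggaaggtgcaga
Fhl1: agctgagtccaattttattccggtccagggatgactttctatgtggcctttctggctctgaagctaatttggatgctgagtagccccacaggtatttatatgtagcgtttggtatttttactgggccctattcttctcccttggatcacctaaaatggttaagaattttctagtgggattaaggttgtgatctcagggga

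The relatives and partners of Nrf1 were mostly higher. Of 8 tested genes of the CNC-bZIP list 5 were higher and 2 lower, against 25.7% and 29.1% of all genes. The 2 lower were Bach2 and the targeted Nfe2l1 itself, which the list includes. Maff, a small Maf partner, stood at 3.347, 4.665 and 4.11 CPM in WT and 7.617, 7.702 and 9.022 CPM in Nrf1-KO cells (log2 difference 1.04 ± 0.12, adjusted p = 1.1e-08). Nfe2l2, which encodes the related factor NRF2, rose from 84.21 ± 1.78 to 109.5 ± 1.30 CPM (SD, n = 3; log2 difference 0.38 ± 0.036, adjusted p = 1.68e-10). The repressor Bach1 (0.49) and the partners Mafk (0.40) and Mafg (0.18) rose too, Bach2 fell by 0.48, and Keap1, the adaptor that holds NRF2 low, had a difference of 0.02 (adjusted p = 0.727). Maff, Bach1 and Mafk lie on chromosomes 15, 16 and 5, and less the medians of those chromosomes their differences are 0.78, 0.23 and 0.16. Nfe2l3, the third family member of this kind, had no count in any of the 6 libraries.

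Genes that process or degrade Nrf1 moved little. Of 13 tested, 7 were lower and 2 higher. The deglycosylating enzyme Ngly1 fell by 0.38 on the log2 scale (adjusted p = 9.32e-05), the ERAD ligase Syvn1 (Hrd1) by 0.30 and its partner Sel1l by 0.23, while the protease Ddi2 rose by 0.22 (adjusted p = 0.00745).

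NRF2-type antioxidant and glutathione genes leaned lower although Nfe2l2 was higher. Of 36 tested, 17 were lower (47.2%) and 9 higher, with a median of -0.14. Slc7a11, the cystine importer, stood at 54.32, 61.53 and 61.26 CPM in WT and 33.16, 32.53 and 34.47 CPM in Nrf1-KO cells (log2 difference -0.81 ± 0.067, adjusted p = 7.12e-12). Catalase (Cat, -0.50) and heme oxygenase (Hmox1, -0.47) also fell, and the glutathione transferases Gstm2 (0.40) and Gsta4 (0.35) and the epoxide hydrolase Ephx1 (0.22) rose. Among 17 genes for metals 7 were higher and 6 lower. The transferrin receptor Tfrc rose by 0.82, the iron importer Slc11a2 by 0.31 and the metallothionein Mt1 by 0.28, and Tfrc and Slc11a2 lie on chromosomes 16 and 15. Slc11a2 was at 0.04 with scaling centred by chromosome (adjusted p = 0.478).

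The ATF4-CHOP axis, through which cells answer amino acid shortage and protein stress, was lower in untreated Nrf1-KO cells. Of 32 tested genes 21 were lower (65.6%) and 4 higher (12.5%), with a median of -0.34. Trib3, a pseudokinase induced by this axis, stood at 104.1, 111.5 and 111.2 CPM in WT and 48.13, 49.39 and 49.58 CPM in Nrf1-KO cells. The lines did not overlap, and the log2 difference was -1.15 ± 0.039 (adjusted p = 2.57e-21). Atf3, a stress-induced transcription factor, fell by 1.37 and Ddit4, an inhibitor of mTORC1, by 0.77. Atf4 itself was higher by 0.20 (adjusted p = 8.34e-06), but it lies on chromosome 15, and its difference was -0.07 under scaling centred by chromosome. Stc2 (0.45) and the amino acid transporter Slc38a2 (0.35) rose, and Slc38a2, also on chromosome 15, was at 0.07 when centred (adjusted p = 0.0805).

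Other chaperone systems were mixed. Of 31 ER chaperone, folding and ERAD genes 12 were lower and 9 higher (median -0.03). The ER oxidase Ero1l fell by 0.82 (adjusted p = 2.38e-17), Dnajb9 and Syvn1 each fell by 0.30 (Dnajb9 not without WT replicate 1 or Nrf1-KO replicate 1, adjusted p = 0.0844 and 0.105), and Dnajb11 rose by 0.51. Of 28 cytosolic heat shock genes 11 were higher and 7 lower (median 0.02). Hsph1 stood at 201.4, 199.0 and 197.7 CPM in WT and 345.1, 333.4 and 331.9 CPM in Nrf1-KO cells (log2 difference 0.76 ± 0.034, adjusted p = 4.35e-18), and Hspa4l rose by 0.68. Both encode Hsp110-type exchange factors of Hsp70. The cofactor Dnajb4 fell by 0.40.

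**Figure D3:**
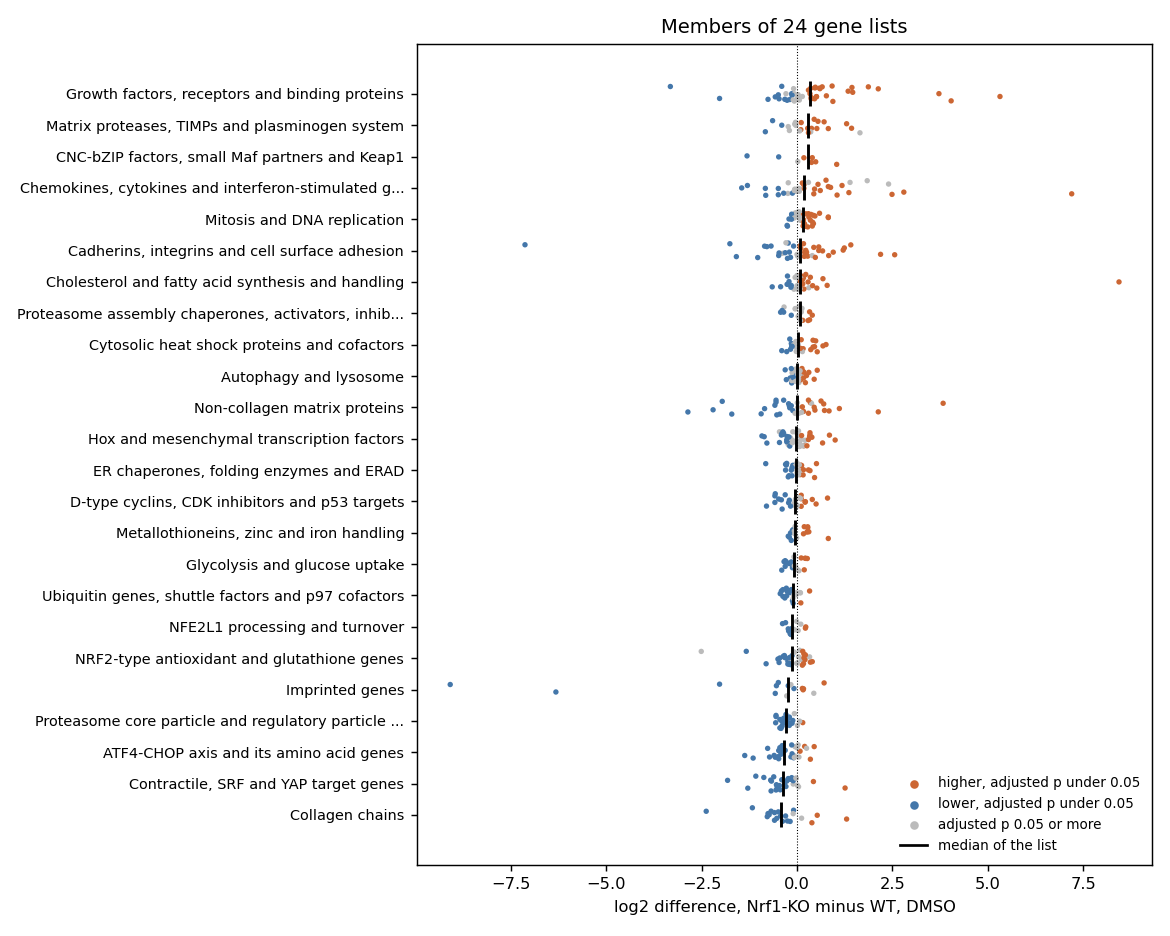
Log2 difference, Nrf1-KO minus WT in DMSO, of the tested members of each of 24 gene lists, with a black bar at the list median and colour for the call. Collagen chains, contractile genes, the ATF4-CHOP axis and proteasome subunits have the lowest medians (-0.43, -0.37, -0.34 and -0.29), and growth factors the highest (0.34).

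Genes of the extracellular matrix showed larger differences than proteasome subunits. Collagen chains, the bulk of fibroblast matrix, were lower for 16 of 21 tested (76.2%) and higher for 3, with a median of -0.43. Col5a3 fell by 1.17, Col4a1 by 0.78 and Col5a1 by 0.76. Col12a1 went the other way, from 43.01, 39.09 and 34.94 CPM in WT to 119.4, 80.9 and 90.46 CPM in Nrf1-KO cells (log2 difference 1.30 ± 0.10, adjusted p = 3.18e-12), and Col20a1 (0.53) and Col8a1 (0.39) rose.

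Of 38 other matrix proteins 17 were lower and 14 higher, and among the members with a mean count of at least 50 the largest decrease was on an elastic fibre gene. Elastin (Eln) stood at 581.5, 551.0 and 549.0 CPM in WT and 127.1, 117.1 and 122.6 CPM in Nrf1-KO cells, 21.8% of WT (log2 difference -2.20 ± 0.048, adjusted p = 2.31e-26). Fibrillin-1 (Fbn1), the main protein of microfibrils, stood at 643.3, 584.8 and 527.4 CPM in WT and 215.3, 162.3 and 162.1 CPM in Nrf1-KO cells (-1.71 ± 0.10, adjusted p = 3.83e-15). Neither overlapped between the lines, periostin (Postn) fell by 1.96, and 19.2% of the Fbn1 stretches are shared with Gm9913 on the other strand. Osteopontin (Spp1) rose from 321.8, 305.8 and 317.8 CPM to 1296, 1343 and 1500 CPM (2.13 ± 0.049, adjusted p = 6.34e-26). The hyaluronan synthase Has2 (1.11) and the lysyl oxidase Loxl3 (0.84) also rose.

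Matrix proteases and their inhibitors leaned higher, with 12 of 23 higher (52.2%) and 3 lower. Mmp19 rose by 1.30, Mmp16 by 0.82 and cathepsin L (Ctsl) by 0.71, while the procollagen peptidase Adamts2 fell by 0.83 and Mmp11 by 0.64. Some of the reads of Mmp19 and Ctsl could belong to other genes, with 20.6% and 22.6% of their stretches shared.

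Contractile genes and other targets of SRF and YAP were lower for 22 of 29 (75.9%) and higher for 2. Smooth muscle actin (Acta2), the marker of activated fibroblasts, stood at 494.7, 549.0 and 513.0 CPM in WT and 258.4, 243.5 and 234.4 CPM in Nrf1-KO cells, 47.2% of WT (log2 difference -1.08 ± 0.042, adjusted p = 6.65e-20). Actg2 (-0.87) and Myl9 (-0.69) fell as well. The myosin kinase Mylk (1.26) and the SRF coactivator Mkl1 (0.43) rose, and both lie on chromosomes with a raised median, 16 and 15.

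Growth factor and receptor genes leaned higher, with 24 of 45 higher (53.3%) and 12 lower (median 0.34). Igf1 stood at 1.623, 1.476 and 1.193 CPM in WT and 22.98, 22.6 and 25.68 CPM in Nrf1-KO cells, a 16.5-fold difference (log2 4.04 ± 0.13, adjusted p = 5.58e-22). Igf2r, the receptor that clears IGF2 and carries lysosomal enzymes, moved opposite, from 222.1, 193.3 and 194.0 CPM to 53.39, 46.72 and 49.89 CPM (-2.03 ± 0.070, adjusted p = 3.39e-21). Wisp2, a matricellular CCN protein, fell from 115.9, 122.5 and 116.9 CPM to 10.83, 11.27 and 12.88 CPM, a 9.99-fold difference (-3.32 ± 0.057, adjusted p = 3.53e-29). None of the 3 genes overlapped between the lines, but Igf1 and Wisp2 also belong to groups chosen for having no overlap. The EGF family ligand Ereg (1.46) and Fgf10 (0.94) rose, and the receptor Fgfr2 fell by 0.76. With scaling centred by chromosome, 26 of the list were higher and 11 lower and the median was 0.14.

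Chemokine, cytokine and interferon-stimulated genes numbered 16 higher and 8 lower of 37. The neutrophil chemokine Cxcl5 rose from 5.021, 4.606 and 3.911 CPM to 26.0, 25.27 and 25.45 CPM (log2 difference 2.49 ± 0.090, adjusted p = 1.13e-20), Cxcl1 by 1.18 and Il1rl1, the receptor of interleukin-33, by 1.36. The stromal chemokine Cxcl12 fell by 1.45, Vcam1 by 0.83 and Isg15 by 0.49. Of 40 adhesion genes 20 were higher and 15 lower. The ephrin Efnb2 rose by 2.56, the integrin Itgb7 by 2.19 and Alcam by 1.24, whereas the Eph receptor Epha4 fell by 1.76, Efnb1 by 1.03 and the collagen-binding integrin Itga11 by 0.85.

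Of 46 tested Hox and mesenchymal transcription factors 16 were lower and 11 higher. Runx1 rose by 1.0, Foxf2 by 0.67 and Twist1 by 0.39. Tbx18 fell by 0.46 and Hoxd3 by 0.86, but 56.7% of the Hoxd3 stretches are shared with other genes, Hoxd4 among them.

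Replication and mitosis genes were higher for 21 of 38 (55.3%) and lower for 7 (18.4%), all by less than 2-fold. Cyclin E (Ccne1) and thymidine kinase (Tk1) each rose by 0.82 and thymidylate synthase (Tyms) by 0.59. The proliferation marker Mki67 fell by 0.26 (adjusted p = 0.0525 in DESeq2), topoisomerase II alpha (Top2a) by 0.25 and Bub1 by 0.21. The list is thus not of 1 direction, and under library size alone its lower calls number 3. Among 27 D-type cyclins, CDK inhibitors and p53 targets 8 were higher and 11 lower, with cyclin D1 (Ccnd1, 18.7% shared) higher by 0.80 and the p53 targets Bbc3, Pmaip1 and Fas lower by 0.80, 0.58 and 0.58, and the p53 targets Eda2r and Aen higher by 0.50 and 0.40.

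Sterol and fatty acid genes were higher for 19 of 38 and lower for 8. The sterol-regulated Insig1 rose by 0.79, the elongase Elovl6 by 0.68 and the squalene epoxidase Sqle by 0.52, and the cholesterol exporter Abca1 fell by 0.65 and the desaturases Fads2 and Fads1 by 0.43 and 0.26. Insig1 and Sqle lie on chromosomes 5 and 15, and less the medians of those chromosomes their differences are 0.55 and 0.25. Those of Fads2 and Fads1, on chromosome 19, are -0.29 and -0.12. Glycolysis genes were lower for 9 of 19 and higher for 5, with the platelet-type phosphofructokinase Pfkp at -0.40, the glucose importer Slc2a1 at -0.34 and Ldha at -0.31. Autophagy and lysosome genes showed 10 higher and 9 lower of 33 (median 0.01). The largest differences were those of the proton pump subunit Atp6v1a at 0.53 and the hexosaminidase Hexa at 0.45. Less the medians of chromosomes 16 and 9, on which they lie, these are 0.28 and 0.5.

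Imprinted genes, which are expressed from the maternal or the paternal copy alone, held some of the sharpest differences. Of 15 tested 8 were lower and 4 higher. Meg3, a maternally expressed noncoding RNA on chromosome 12, had 79, 84 and 68 counts in the WT libraries and none in the Nrf1-KO libraries, so that its level was at least 84.6-fold lower, taking 3 counts over the group as the limit. Rian, a noncoding RNA of the same domain, had 105, 119 and 100 counts in WT and 0, 1 and 3 in Nrf1-KO libraries, a ratio of 89.0 (95% counting interval 34.4 to 329). Mirg, another noncoding RNA of the domain, was too low to be tested, with 10, 4 and 2 counts in WT and 5, 9 and 10 in Nrf1-KO libraries. Dlk1, the paternally expressed protein-coding gene of that domain, was higher, at 538.2, 522.1 and 539.2 CPM in WT and 885.0, 892.6 and 841.7 CPM in Nrf1-KO cells (log2 difference 0.71 ± 0.034, adjusted p = 1.46e-17). In the same cells Igf2r and Peg3 (-0.57), each imprinted in mouse, were lower, and Igf2 was at -0.49.

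Over all genes, those with a mean count of at least 100 and no overlap were ranked by the size of the difference. Gpnmb, a lysosomal and cell surface glycoprotein, stood at 2.789, 2.067 and 2.387 CPM in WT and 134.2, 132.6 and 141.4 CPM in Nrf1-KO cells, a 55.8-fold difference (log2 5.80 ± 0.075, adjusted p = 1.33e-32). Pi15, a secreted peptidase inhibitor, rose 32.3-fold and Lphn3, an adhesion receptor, 16.6-fold. Aim2, the sensor of cytosolic DNA, had 5 counts over the WT libraries and 1032 over the Nrf1-KO libraries, a ratio of 188 (95% counting interval 80.2 to 579). Mctp1, a calcium-binding membrane protein, had 3 against 691, a ratio of 210 (71.4 to 1020), and Gm13544 6 against 616 (93.4, 42.7 to 255). These are genes at or near the limit of detection in WT cells and clearly counted in Nrf1-KO cells. Etl4 (log2 difference 5.28), Pcdh10 (3.38), Cdh26 (3.09), P2rx3 (2.77) and Sparcl1 (2.76) complete the group of 12 with Igf1. Exons of P2rx3 overlap those of Ssrp1 on the other strand, so its reads cannot be assigned with certainty where the counting by strand is not stated.

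Among the 12 genes that fell most, 2 encode serine protease inhibitors of the same cluster on chromosome 12. Serpina3n stood at 17.75, 14.05 and 15.25 CPM in WT and 0.3283, 0.3819 and 0.2699 CPM in Nrf1-KO cells (log2 difference -5.60 ± 0.21, adjusted p = 3.19e-20). Serpina3h stood at 36.46, 32.59 and 36.6 CPM in WT and 1.642, 0.9548 and 1.542 CPM in Nrf1-KO cells (-4.64 ± 0.12, adjusted p = 5.03e-24). Neither overlapped between the lines, which the choice of these 12 genes required. Cyba, the p22-phox subunit of NADPH oxidases, fell to 7.11% of WT (-3.81), and Fhl1, a LIM-domain protein, to 9.94% (-3.33). Isyna1, the enzyme that starts inositol synthesis, fell by 2.99, Sumo3 by 2.55, the laminin chain Lama5 by 2.52, the semaphorin receptor Plxna2 by 2.21, and Slurp1 and the heparan sulfatase Sulf2 each by 2.16. Wisp2 and Eln, described above, are the remaining members.

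A few genes were counted in a single line. With 0 counts in all WT libraries and a mean of at least 20 in Nrf1-KO libraries there were 5 genes. Cytip, a regulator of leukocyte adhesion, had 58, 63 and 89 counts in Nrf1-KO cells, at least 63.7-fold higher than in WT. The fatty acid receptor Cd36 had 41, 48 and 72 counts, at least 48.8-fold higher. The others were Csrnp3, the adhesion receptor Gpr126 and the alarmin Il33, at least 28.5-, 23.7- and 20.6-fold higher. In the reverse direction there were 6 genes, which were Meg3, 8430419L09Rik, Btbd11, the neurturin receptor Gfra2, Rbfa and the interleukin-36 receptor Il1rl2. Of the Rbfa stretches 34.0% are shared with AC131065.2 on the other strand, so its counts are less certain. Btbd11 had 50, 47 and 39 counts and Gfra2 37, 32 and 32 counts in WT, at least 49.8- and 37.0-fold more than in Nrf1-KO cells.

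The differences were not spread evenly over the genome. Of 20 chromosomes with at least 100 tested genes, 3 had medians well above 0. They were 0.24 on chromosome 5 (752 genes), 0.27 on chromosome 15 (477 genes) and 0.26 on chromosome 16 (379 genes). On these 3, chosen after their values were seen, 65.3%, 67.5% and 62.0% of genes were called higher, against 25.7% of all genes tested. Chromosomes 14 and 19 had medians of -0.13 and -0.14, and the other 15 lay between -0.05 and 0.02. Each Nrf1-KO library showed it, with medians of 0.23, 0.23 and 0.23 for chromosome 5, 0.26, 0.27 and 0.25 for chromosome 15 and 0.22, 0.23 and 0.25 for chromosome 16.

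The shift ran along whole chromosomes. In 4 successive blocks of tested genes along chromosome 5 the medians were 0.23, 0.25, 0.23 and 0.25, on chromosome 15 0.35, 0.21, 0.25 and 0.26, and on chromosome 16 0.13, 0.20, 0.31 and 0.37. Smaller stretches stood out elsewhere. They were found by scanning these same DMSO values for medians of at least 0.4 in size over 25 successive tested genes. Their medians and counts of calls therefore follow in part from the search. On chromosome 3, 39 adjacent tested genes from Pkn2 to Ankrd13c had a median of -0.38, with 31 of them lower, and on chromosome 4, 39 genes from Rmdn1 to Ndufb6 had a median of -0.38, with 28 lower. On chromosome 18, 37 tested genes from Pcdhb2 to Pcdh1, many of them clustered protocadherins, had a median of 0.42, with 20 higher and 5 lower. Chromosomes 5, 15 and 16 hold 13.8% of the tested genes with a position, but 35.0% of those called higher and 21.6% of those at least 2-fold higher. Outside them 19.4% of genes were higher and 32.6% lower. Less the chromosome median, other genes named above that rose and lie on these chromosomes had smaller differences. For example, Dnajb11 was at 0.25, Col8a1 at 0.13, Tyms at 0.35, Runx1 at 0.75 and Hsph1 at 0.52. Cxcl5 was at 2.25, Cxcl1 at 0.94 and Ereg at 1.22. In the CFZ libraries, which share no culture with the DMSO libraries, the medians were 0.26, 0.26 and 0.23 at 6 h and 0.25, 0.28 and 0.23 at 24 h for chromosomes 5, 15 and 16. DNA copy number was not measured in this series, and its part in these shifts was not tested.

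**Figure D4:**
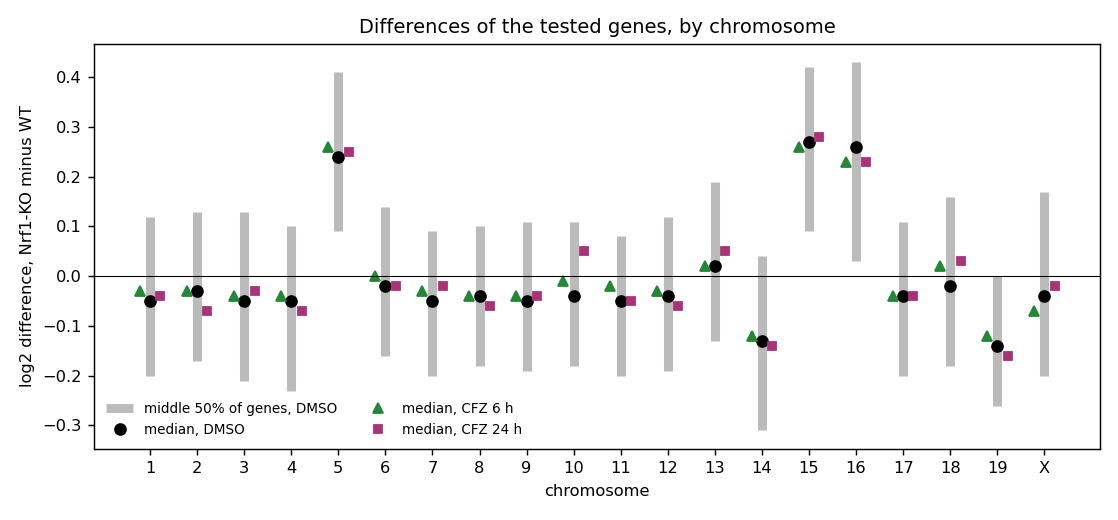
Differences of the tested genes by chromosome, Nrf1-KO minus WT on the log2 scale, with the middle 50% of genes in DMSO as a grey bar, the DMSO median as a black circle, and the medians at CFZ 6 h (triangle) and 24 h (square). Chromosomes 5, 15 and 16 lie near 0.25 and chromosomes 14 and 19 near -0.13 in all 3 conditions.

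The larger basal differences were mostly called the same way in the treated cultures. Of the 376 genes at least 2-fold higher in Nrf1-KO cells in DMSO, 306 (81.4%) were called higher in Nrf1-KO than WT cells at CFZ 6 h and 297 (79.0%) at 24 h, where 30.5% and 35.6% of all tested genes were called higher. Of the 208 at least 2-fold lower, 152 (73.1%) and 138 (66.3%) were called lower, where 30.8% and 36.4% of all genes were. Of all 3017 genes called higher in DMSO, 65.7% were called higher at 6 h and 57.7% at 24 h, and 9.15% and 20.2% were called lower. Of all 3419 called lower, 58.1% and 53.1% were called lower again, and 11% and 22.8% were called higher. For Gm13544, Mctp1 and Aim2 the log2 differences at 6 h were 5.72, 6.40 and 6.61, and for Serpina3n, Serpina3h and Cyba they were -6.48, -3.92 and -3.06. The 3 proteasome subunits with the largest basal decrease behaved otherwise. Psmd3, at -0.56 in DMSO, was at -2.24 at CFZ 6 h and -2.02 at 24 h, Psma1 at -1.82 and -1.85, and Psmc6 at -1.45 and -1.43.

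**Figure D5:**
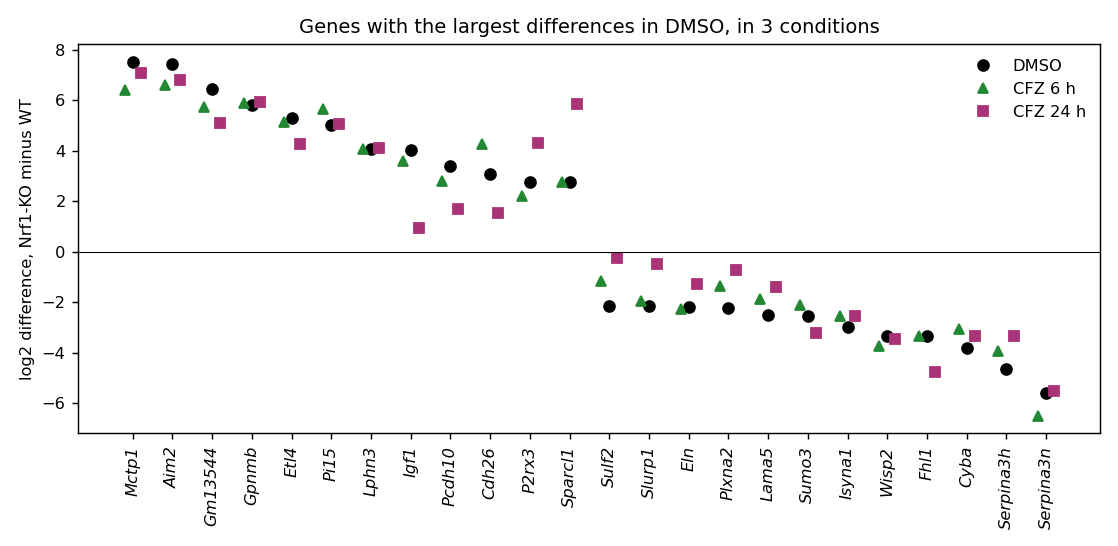
Log2 difference, Nrf1-KO minus WT, for the 12 genes highest and the 12 genes lowest in Nrf1-KO cells in DMSO (circle), with the same difference at CFZ 6 h (triangle) and 24 h (square) in separate cultures. Mctp1, Aim2, Gm13544, Gpnmb and Pi15 stay above 5 and Serpina3n stays below -5 in all 3 conditions. Igf1 is at 0.94 at 24 h (adjusted p = 0.313, edgeR). It is barely counted there, at 0.081 CPM in WT and 0.192 CPM in Nrf1-KO libraries. Cdh26 is at 1.53 at 24 h (adjusted p = 0.275, edgeR), with 0.020 CPM in WT and 0.079 CPM in Nrf1-KO libraries. Sulf2, Slurp1 and Plxna2, at -2.16, -2.16 and -2.21 in DMSO, differ less at 24 h, at -0.26, -0.50 and -0.72. The 5.83 of Sparcl1 at 24 h rests on 0.0 CPM in WT.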

How the data were processed

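RNA was sequenced from 18 cultures of WT and Nrf1-KO NIH-3T3 cells, 3 in each of 6 groups. The authors prepared libraries with a stranded mRNA kit, sequenced paired 125-base reads and used an application that combines STAR and DESeq2, whose versions are not given in the sources used here. They deposited 1 table of raw read counts with 23420 rows named by gene symbol, and 6577 rows were at 0 throughout. The genome build, the annotation and the use of strand in counting are not given in the sources used here, so overlapping and near-identical genes could be counted in more than 1 way. In 27 rows a date stands in place of a symbol, and these were not named.

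edgeR 4.0.16 in R 4.3.3 kept genes by filterByExpr (at least 10 counts, and 15 in all), scaled libraries by TMM and fitted all 6 groups in 1 quasi-likelihood model. P-values were adjusted by the Benjamini-Hochberg method over 11762 genes, and the threshold was 0.05. Log2 differences are Nrf1-KO minus WT, and each SE was derived from the log2 difference and its F statistic. The study names cultures as biological replicates. No pair of libraries agreed within sampling noise (chi-square per degree of freedom 1.77 to 5.50). Chromosomes were taken by symbol from GENCODE M21 on GRCm38 (11647 of the tested genes), which need not be the authors' annotation.

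Members and gene lists were chosen with earlier results of these data known. The genes named are Nfe2l1, in each list up to 3 highest and 3 lowest called genes averaging 50 or more counts, the 12 highest and 12 lowest called genes averaging 100 or more counts and not overlapping, and genes at 0 in 1 line with a mean of at least 20 in the other. Proteasome subunits, small families and neighbours of Nfe2l1 are also named. DESeq2 1.42.0 was run as an alternative, as were scaling by library size alone or by the upper quartile, other filters, the 6 DMSO libraries only, a replicate block, each DMSO library left out in turn, and a longer motif. Scaling centred by chromosome was added after the data were seen. The fits were tested on simulated counts. Not every gene that this rule selects is reported here. Ratios of low counts carry exact intervals that cover counting error only.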

Additional observations from a re-analysis of the deposited data

Results flagged for a closer look

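Of 10 genes whose CFZ values are given (Nfe2l1, the 3 highest and 3 lowest in DMSO and 3 proteasome subunits), 5 passed a test of whether the difference between Nrf1-KO and WT cells itself differed between CFZ and DMSO, at both times, by the interaction of line and treatment in the same edgeR model (adjusted p over all genes). The proteasome subunits were further below WT under CFZ than in DMSO, Psmd3 by -1.68 at 6 h (adjusted p = 6.5e-23) and -1.45 at 24 h (2.97e-22), Psma1 by -1.28 (1.48e-17) and -1.31 (1.35e-18), and Psmc6 by -0.90 (1.4e-12) and -0.88 (4.14e-13) on the log2 scale. For Nfe2l1 the difference was nearer 0 by 0.70 at 6 h (1.61e-13) and further from 0 by -0.15 at 24 h (0.00623). For Serpina3h it was nearer 0 by 0.72 at 6 h (0.00391) and 1.31 at 24 h (1.78e-05). For Mctp1, Aim2, Gm13544, Serpina3n and Cyba no such interaction passed the threshold, at either time. Mctp1, Aim2 and Gm13544 are near the limit of detection in WT cells and Serpina3n in Nrf1-KO cells, so changes there are hard to detect. For example, the fitted interaction was -1.12 for Mctp1 at 6 h and -1.34 for Gm13544 at 24 h. Among the other named genes the interaction also passed for many, for example at 6 h for Atf3 (1.88, adjusted p = 1.29e-12), Trib3 (1.54, 1.29e-20) and Psmd2 (-1.18, 4.21e-20). Each of these examples changed sign between DMSO and 6 h, but for Psmd2 the sign in DMSO turned negative with scaling centred by chromosome. Atf3, Trib3 and Psmd2 were at -1.37, -1.15 and 0.15 in DMSO and at 0.51, 0.39 and -1.03 at 6 h. At 24 h they were at 1.7, 0.05 (not past the threshold) and -0.97. These interactions share the DMSO libraries with the basal comparison.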

How the results depend on the processing

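With 1 library left out at a time, 5765 to 6098 genes were called, 2699 to 2948 higher and 2817 to 3243 lower, and Nfe2l1 stayed between -1.33 and -1.28. Over all alternatives the genes at least 2-fold higher numbered 285 to 491 and those lower 157 to 273, and 27 to 29 proteasome subunits were lower. Of the 185 other named genes, 182 kept their call under DESeq2, 181 under library size alone, 185 under upper-quartile scaling and 175 under scaling centred by chromosome. That last setting, chosen after the data were seen, turned Psmd2 and Atf4 to -0.07 each. It left 0 proteasome subunits higher, 1 ubiquitin list member higher, 3 metal genes lower, 2 ATF4-CHOP genes higher, 5 proteases lower, 3 replication genes lower and 5 autophagy genes lower. With Shfm1 added to Psmd2, 2 proteasome subunits were higher under library size alone, with the 6 DMSO libraries only and without WT replicate 1. Library size alone left 3 replication genes lower and 3 autophagy genes lower, and upper-quartile scaling left 4 autophagy genes lower. Psmd12 lost its call under DESeq2, library size alone, no expression filter, centring by chromosome and without WT replicate 1, WT replicate 2 or Nrf1-KO replicate 2 (adjusted p = 0.132, 0.0706 and 0.0714).

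The longer motif TGACTCAGC occurred in 0.399% of tested genes' windows, in 0.0% of proteasome subunits', in 0.714% of those at least 2-fold lower and in 0.781% of those at least 2-fold higher. With the replicate block 6515 genes were called and 29 proteasome subunits were lower, and no named gene changed its call. The replicate numbers mark no shared batch in the labels, and same-numbered libraries did not deviate together (correlations -0.018, 0.028 and 0.014).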
